A study of Mus musculus with 12 samples.

Results

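The genes described here are 10 regulators of melanocyte identity and plasticity: Mitf, Sox10, Pax3, Tfap2a, Sox9, Ngfr, Pou3f2, Tbx2, Zeb1 and Zeb2. They were taken as the rows of the count table whose Ensembl identifiers carry these symbols, 10 of 54232 genes. RNA was sequenced from B16F10 cells, a mouse melanoma line of C57BL/6 origin, in 12 libraries of 4 groups with 3 libraries each. WT cells were untreated and grown in culture. An age of 6 weeks is given in the labels of all 12 libraries, cultured ones included, while the study's methods give an older range for its mice. The relapsed lines ITF1, Rel and ITM came from cells that were placed under the skin of mice. They were sorted from tumors that returned after immunotherapy and then grown in culture before lysis. Tumor cells (libraries 1, 3 and 4) had the same history, but their RNA was taken directly after the sort, which the study's text places within days of therapy although the labels speak of relapse. Digestion of the tumor, the sort itself and growth in the mouse come together with this group and cannot be told apart. The immunotherapy was an agonist antibody to CD40 with TNFα and an antibody to TRP1, the product of Tyrp1. Lyso cells were cultured B16F10 cells exposed to granules that T cells secrete, named lysosomes in the labels, for 48 h by the labels and for 4 h by the study's methods, which also place them on coated low-adherence plates. The relapsed lines are 1 line per library, the gate of the sort is not given in the sources used here, and the study states in general that experiments were repeated independently without tying the WT, Lyso or Tumor libraries to separate cultures or animals. The p-values measure the spread between these libraries, which may be technical.

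MITF is the basic helix-loop-helix factor that switches on pigment genes and marks the differentiated state of melanocytes and melanoma cells. SOX10, PAX3 and TFAP2A are neural crest factors that act with it or on its gene. A lower MITF level together with NGFR, SOX9, POU3F2 or ZEB1 marks the dedifferentiated, crest-like or invasive states that melanoma cells can enter, and ZEB2 is the ZEB factor usual in differentiated melanocytes.

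Levels are given as CPM, counts of a gene per 1e+06 counts on genes after scaling of library sizes. Counts on genes came to 1667398, 2350129 and 16384021 in WT 1, WT 2 and WT 3, while the relapsed lines had 12749399 to 16402629, Lyso 10895611 to 12675277 and Tumor 3102442 to 5049496. Depth and group were thus partly confounded, and 3 counts, taken as the floor of detection, stood for 1.70 CPM in WT 1 and 0.177 CPM in WT 3. All 10 regulators were among the 14924 genes tested with edgeR's quasi-likelihood test, in 1 fit of the 12 libraries, and a gene was called at a Benjamini-Hochberg adjusted p under 0.05. The 10 melanocyte markers, such as Dct, Pmel and Tyr, were above the floor in every library, and their summed level was 19289 to 28865 CPM in WT and 20025 to 22277 CPM in Tumor. The 10 fibroblast markers summed to between 30.0 and 39.5 CPM in WT, where Lum and Thy1 had no count, and to between 7707 and 10709 CPM in Tumor, where all 10 were called higher. Endothelial markers (6 of 8 called higher) summed to 48.3 to 53.6 CPM in Tumor and 2.96 to 10.2 CPM in WT, myeloid markers (6 of 10) to 41.3 to 69.2 and 12.5 to 29.4 CPM, Schwann cell markers (2 of 8) to 281 to 461 and 92.3 to 117 CPM, and pericyte and smooth muscle markers (3 of 8) to 150.2 to 174.9 and 158 to 256 CPM. The cultured relapsed lines overlapped Tumor in Schwann cell markers (150 to 538 CPM) and in myeloid markers (12.6 to 47.0 CPM), but not in endothelial markers (2.15 to 23.6 CPM). Lyso had 67.8 to 76.3, 33.7 to 37.5 and 8.11 to 8.91 CPM of these 3 sets. T cell markers (0 of 12 called in Tumor, 4 higher in Lyso) summed to 3.82 to 10.8 CPM in Tumor, 18.1 to 20.9 CPM in Lyso and 1.77 to 7.36 CPM in WT, and keratinocyte markers to at most 1.65 CPM in any library. In bulk RNA of this kind, fewer cells of a type and less RNA per cell cannot be told apart.

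Per kilobase of exon, Sox10 stood highest of the 10 in every group and was followed by Mitf, with 186 ± 11.1 and 71.3 ± 30.4 CPM per kilobase in WT (SD, n = 3). In Tumor the values were 186 ± 4.15 for Sox10 and 143 ± 10.9 for Mitf. Tbx2, Pax3, Tfap2a, Zeb2 and Sox9 came next in this order of means in all groups, at 52.7 ± 9.42, 30.8 ± 1.88, 26.4 ± 11.8, 8.70 ± 2.97 and 2.72 ± 1.46 CPM per kilobase in WT. Ngfr, Pou3f2 and Zeb1 were the lowest, all under 1 CPM per kilobase in every group mean. Neighbours whose libraries overlapped in WT were Mitf and Tbx2, Pax3 and Tfap2a, Ngfr and Pou3f2, and Pou3f2 and Zeb1. In Tumor, Mitf and Tbx2 no longer overlapped, and Tbx2 and Pax3 did. The order of Tbx2 and Pax3 depends on the length used, since per kilobase of the longest transcript Tumor had 68.8 for Pax3 and 43.3 for Tbx2.

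**Figure D1:**
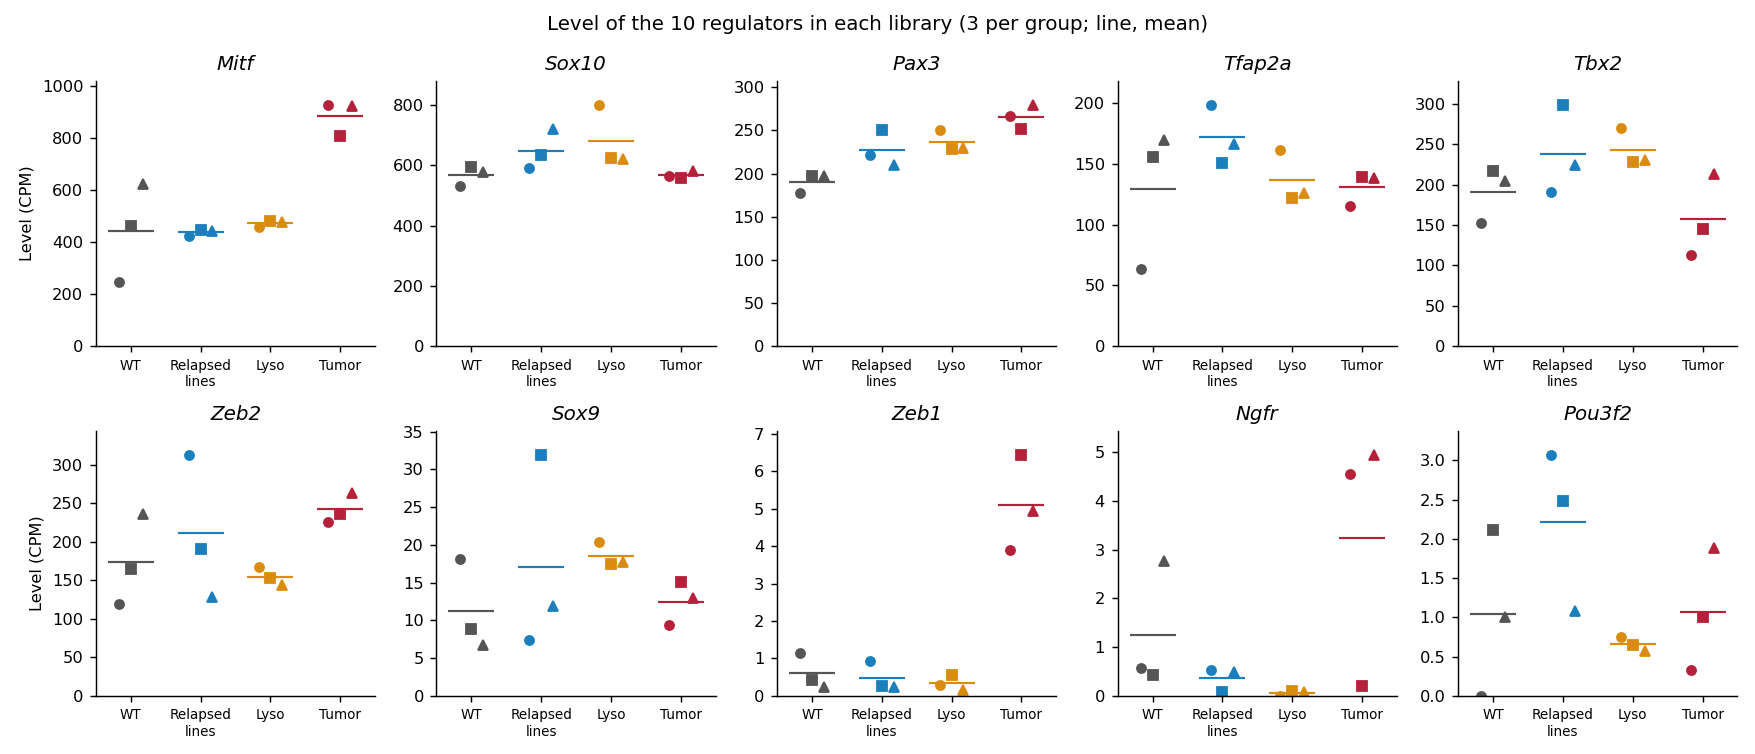
Level of each regulator in CPM (y axis, from 0, own scale per panel) in the 12 libraries, by group on the x axis. Circles, squares and triangles are the 3 libraries of a group (WT 1 to 3, ITF1, Rel and ITM, Lyso 1 to 3, Tumor 1, 3 and 4) and lines are means. Mitf lies at 806 to 925 CPM in Tumor against 245 to 620.4 CPM in WT, and Zeb1 at 3.90 to 6.44 CPM against 0.236 to 1.13 CPM.

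Mitf (chromosome 6, 97807052 to 98021349 of GRCm38, plus strand) has 8 annotated transcripts, and the table counts reads over the gene as a whole, so its starts cannot be separated here. Promoter windows reach from 250 bases before to 50 bases after a start, and 3 of them, from RefSeq on GRCm38.p6, fall in Mitf. The first and the last are shown because melanocytes are known to use the last, the start of the M form, where CREB and LEF1 act downstream of MC1R and WNT signals whose genes are described further on. Capitals mark matches to the letters searched.
Mitf, first start, chr6:97806808-97807107, plus strand: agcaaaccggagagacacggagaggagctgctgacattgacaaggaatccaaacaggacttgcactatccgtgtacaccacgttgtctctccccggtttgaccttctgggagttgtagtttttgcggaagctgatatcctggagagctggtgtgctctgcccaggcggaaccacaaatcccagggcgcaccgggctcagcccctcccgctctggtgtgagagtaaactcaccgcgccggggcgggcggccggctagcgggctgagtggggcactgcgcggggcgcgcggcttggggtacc
Mitf, M start, chr6:97991533-97991832, plus strand: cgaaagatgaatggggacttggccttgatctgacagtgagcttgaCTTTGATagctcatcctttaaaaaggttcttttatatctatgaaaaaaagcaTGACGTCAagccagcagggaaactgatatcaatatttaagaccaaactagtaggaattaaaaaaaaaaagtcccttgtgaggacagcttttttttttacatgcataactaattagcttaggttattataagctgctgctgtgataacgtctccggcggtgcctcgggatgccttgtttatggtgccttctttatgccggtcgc
The letters searched on both strands were TGACGTCA for the CRE, CTTTGAT for TCF/LEF factors, ACAAAG as a first form for SOX factors with ACAATG as another form, CATGTG as the E-box of MITF, CACGTG as the palindromic E-box, CACCTG as the E-box of ZEB factors, and GCCNNNGGC for AP-2 factors. They are held by 1.79%, 3.73%, 18.7%, 12.6%, 14.2%, 7.15%, 20.2% and 16.6% of all 32851 promoter windows of this length, in the same order. None of these overlap each other in the windows shown. At the M start, CTTTGAT lay at -205 to -199 and TGACGTCA at -153 to -146 from the start, while the first window held none of the letters. Windows were matched for 5 of the 10 regulators, 11 in all, and none for Sox10, Pax3, Sox9, Tbx2 or Zeb1. A match describes letters and not the use of a site.

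Mitf was about 2-fold higher in Tumor than in WT. Its level was 245, 459 and 620.4 CPM in WT 1 to 3 and 925, 806 and 922 CPM in Tumor 1, 3 and 4. The Tumor libraries lay close together and all above WT, while WT itself spread from its lowest to its highest library by 2.53-fold. The log2 fold change was 0.99 (SE 0.24, adjusted p = 0.0113 by edgeR), with a 95% interval of 0.48 to 1.51. Means were 442 ± 188 CPM (SD, n = 3) for WT and 884 ± 67.8 CPM in Tumor. Against WT 1 and WT 2, the WT libraries of similar depth, the log2 fold change was 1.33 (adjusted p = 0.00293, edgeR), and against WT 3 alone it was 0.49 (adjusted p = 0.294, edgeR) and not called. The latter has 1 control library, which is assumed to vary like the libraries of the other groups. The call was also lost when only the compared groups were fitted (adjusted p = 0.0555) and when libraries were scaled by their melanocyte genes (log2 fold change 0.75, adjusted p = 0.391). The melanocyte genes used for this scaling are all in the list of MITF targets described further on. Here and below, such scaling is therefore not independent of Mitf.

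Mitf was not called in either cultured group. ITF1, Rel and ITM had 424, 446 and 440.0 CPM, and Lyso 1 to 3 had 456, 481 and 475 CPM. These 6 libraries all fell between the lowest and the highest WT library. The log2 fold change was -0.02 in the relapsed lines (95% interval -0.54 to 0.49) and 0.08 in Lyso (95% interval -0.43 to 0.60), and edgeR gave adjusted p = 1.0 and 0.909. Tumor exceeded the relapsed lines by 1.02 (SE 0.24, adjusted p = 0.00936, edgeR) and Lyso by 0.91 (SE 0.24, adjusted p = 0.0143, edgeR), with no overlap in either case. The last of these is also the test of the difference between the Tumor and Lyso effects against WT, and it missed the threshold without Tumor 1 (adjusted p = 0.0505) or without Lyso 1 (adjusted p = 0.0557).

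Sox10 (chromosome 15, 79154908 to 79165240, minus strand), which acts on the Mitf gene and keeps the lineage, had nearly equal means in Tumor and WT. WT 1 to 3 had 530.4, 596 and 577 CPM and Tumor 1, 3 and 4 had 566, 557 and 582 CPM. The Tumor libraries fell within the range of WT, and the log2 fold change was 0.00 with a 95% interval of -0.29 to 0.29 (adjusted p = 1.0, edgeR). ITF1, Rel and ITM had 590.2, 636 and 720.3 CPM, which overlapped WT. Lyso 1 to 3 had 800.3, 623 and 622 CPM, all above WT but not called (log2 fold change 0.26, SE 0.13, adjusted p = 0.318, edgeR).

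Counts of the other core factors were also set against those of Sox10 within each library, a measure that no scaling between libraries can change. The Mitf to Sox10 ratio was 0.462, 0.771 and 1.07 in WT 1 to 3 and 1.64, 1.45 and 1.58 in Tumor 1, 3 and 4. It was 0.611 to 0.718 in the relapsed lines and 0.570 to 0.772 in Lyso, so every Tumor library lay above the other 9. The exact two-sided permutation test of Tumor against WT gave p = 0.1, the smallest that 3 libraries against 3 allow. The Pax3 to Sox10 ratio was 0.331 to 0.341 in WT and 0.452 to 0.480 in Tumor, again without overlap (exact permutation p = 0.1). For Tfap2a the ratio overlapped, at 0.120 to 0.294 in WT and 0.204 to 0.250 in Tumor (exact permutation p = 1.0).

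**Figure D2:**
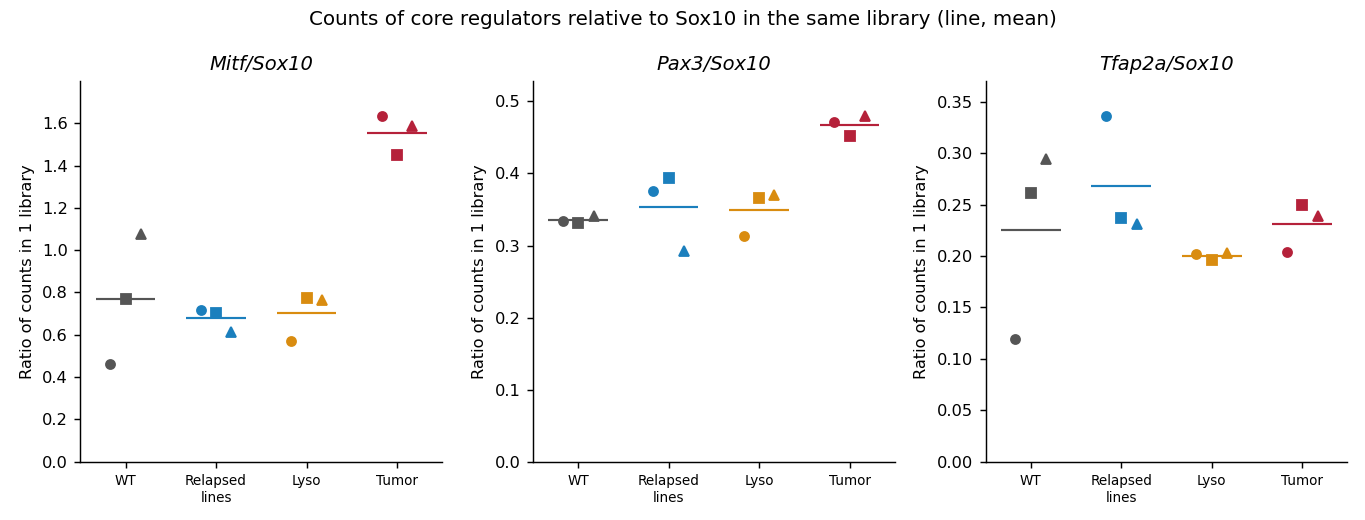
Counts of Mitf, Pax3 and Tfap2a divided by those of Sox10 in the same library (y axis, no unit, from 0), by group on the x axis. Points are libraries, with the same symbols as in the plot of levels, and lines are means of 3. The Mitf ratio is 1.45 to 1.64 in Tumor and at most 1.07 elsewhere, and the Pax3 ratio is 0.452 to 0.480 in Tumor and at most 0.393 elsewhere.

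Pax3 (chromosome 1, 78101267 to 78197134, minus strand), a paired-box factor of the crest that acts with SOX10 on Mitf, rose modestly in Tumor. Levels were 177, 198 and 197 CPM in WT 1 to 3 and 267, 252 and 279 CPM in Tumor 1, 3 and 4. The log2 fold change was 0.48 (SE 0.11, adjusted p = 0.00854, edgeR), or 1.39-fold. ITF1, Rel and ITM had 222, 250.0 and 211 CPM, and Lyso 1 to 3 had 251, 228 and 230.1 CPM. Both of these groups lay wholly above WT as well, with log2 fold changes of 0.25 (SE 0.11, adjusted p = 0.419) and 0.31 (SE 0.11, adjusted p = 0.142) by edgeR. Tumor did not pass the test against the relapsed lines (0.23, adjusted p = 0.169) or against Lyso (0.17, adjusted p = 0.282, edgeR), so a difference between the groups' effects on Pax3 was not shown. Against WT 3 alone, 1 library whose spread is again taken from the other groups, the value was 0.41 (adjusted p = 0.146, edgeR). The call in Tumor was lost without the filter on low counts (0.44, adjusted p = 0.0628) and with scaling by melanocyte genes (0.31, adjusted p = 0.785).

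Tfap2a (chromosome 13, 40715302 to 40738376, minus strand), the AP-2 factor that binds with MITF at pigment genes, was not called in any comparison. Its level was 63.4, 156 and 169.8 CPM in WT 1 to 3, with WT 1 apart from the other two. ITF1, Rel and ITM had 199, 151 and 167 CPM, Lyso 1 to 3 had 162, 122 and 126 CPM, and Tumor 1, 3 and 4 had 115, 139 and 139 CPM. All groups overlapped WT, and the log2 fold change in Tumor was -0.00 with a 95% interval of -0.59 to 0.58. Exons of other genes lie opposite 14.64% of its exonic bases, and since the strand setting of the counting is not given, reads there cannot be told apart.

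Among the factors of plasticity, Tbx2 (chromosome 11, 85832551 to 85841948, plus strand), a T-box repressor that holds off senescence in melanoma cells, was expressed in every group. WT 1 to 3 had 152, 217 and 204 CPM, ITF1, Rel and ITM 191, 299 and 224 CPM, Lyso 1 to 3 271, 228 and 231 CPM, and Tumor 1, 3 and 4 112, 146 and 213 CPM. The Lyso libraries lay above WT and above Tumor, and Tumor overlapped WT. No comparison passed the test, and the lowest adjusted p-values were 0.0605 for Tumor against Lyso (log2 fold change -0.63, SE 0.23) and 0.0847 for Tumor against the relapsed lines (-0.60, SE 0.23) by edgeR. Both passed it without the filter on low counts (adjusted p = 0.00378 and 0.0034) and without Tumor 4, the highest of the Tumor libraries (adjusted p = 0.0127 and 0.0194), and the second also without ITF1 (adjusted p = 0.0458). The first also passed with DESeq2 (adjusted p = 0.0481), with the compared groups only (adjusted p = 0.0135, edgeR) and with the replicate number as a block (adjusted p = 6.88e-07, edgeR). With libraries scaled by melanocyte genes the log2 fold changes were 0.04 against Lyso and -0.24 against the relapsed lines.

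Sox9 (chromosome 11, 112782224 to 112787760, plus strand), the SOX factor that stands against SOX10 in melanoma states, had low levels. They were 18.1, 8.87 and 6.72 CPM in WT 1 to 3, 7.37, 31.9 and 11.9 CPM in ITF1, Rel and ITM, 20.4, 17.5 and 17.7 CPM in Lyso 1 to 3, and 9.43, 15.1 and 12.9 CPM in Tumor 1, 3 and 4. Rel stood above the other libraries, and the relapsed lines spread by 4.33-fold. The log2 fold changes against WT were 0.76 in the relapsed lines (SE 0.50), 0.88 in Lyso (SE 0.50) and 0.33 in Tumor (SE 0.53), and none was called. Tumor against Lyso was not called either (-0.55, adjusted p = 0.431), but was called with the compared groups only (-0.53, adjusted p = 0.0193, edgeR) and with the replicate block (-0.59, adjusted p = 0.0332, edgeR). The Sox9 to Sox10 ratio of counts was 0.0116 to 0.0342 in WT, 0.0125 to 0.0502 in the relapsed lines, 0.0254 to 0.0285 in Lyso and 0.0167 to 0.0271 in Tumor, so all groups overlapped WT.

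Ngfr (chromosome 11, 95568818 to 95587735, minus strand) encodes the low-affinity nerve growth factor receptor CD271, a surface mark of crest-like melanoma cells, and had at most 47 counts in any library. WT 1 to 3 had 1, 1 and 47 counts (0.566, 0.422 and 2.77 CPM), Lyso 1 to 3 had 0, 1 and 1 counts, ITF1, Rel and ITM had 7, 1 and 8 counts, and Tumor 1, 3 and 4 had 14, 1 and 21 counts (4.55, 0.201 and 4.94 CPM). Only WT 3, ITF1, ITM, Tumor 1 and Tumor 4 were above 3 counts. In Lyso, edgeR called Ngfr lower than in WT (log2 fold change -4.66, SE 1.21, adjusted p = 0.0472), and the Lyso to WT ratio of summed counts, per count on genes, was 0.0239 with an exact 95% interval of 0.00281 to 0.0910 that covers counting error only. That difference rests on WT 3, since WT 1 and WT 2 held 1 count each, and without WT 3 the adjusted p was 0.603. It was also lost without WT 2 (adjusted p = 0.0533) or any Lyso library (adjusted p = 0.140 to 0.178, edgeR). Tumor was called above the relapsed lines (3.06, SE 0.87, adjusted p = 0.0267) and above Lyso (5.42, SE 1.18, adjusted p = 0.00496), but not above WT (0.75, adjusted p = 0.573, edgeR). Tumor 3 lay among the relapsed lines, and the call against them was lost without Tumor 1 (adjusted p = 0.0981), Tumor 4 (0.152) or Rel (0.0721).

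Pou3f2 (chromosome 4, 22482780 to 22488366, minus strand), the POU factor BRN2 of invasive melanoma cells, had at most 40 counts in any library. WT 1 to 3 had 0, 5 and 17 counts, ITF1, Rel and ITM had 40, 37 and 18, Lyso 1 to 3 had 8, 7 and 7, and Tumor 1, 3 and 4 had 1, 5 and 8. Means were 1.04 ± 1.06 CPM (SD, n = 3) in WT, 2.21 ± 1.02 in the relapsed lines, 0.658 ± 0.0938 in Lyso and 1.07 ± 0.781 in Tumor. No comparison passed the test, and the 95% intervals were wide, from -1.49 to 1.64 for Tumor against WT, so that differences of 2-fold were not detectable at this depth.

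Zeb1 (chromosome 18, plus strand), the ZEB factor of the mesenchymal-like state, rose in Tumor from a level at the floor. WT 1 to 3 had 2, 1 and 4 counts (1.13, 0.422 and 0.236 CPM), and Tumor 1, 3 and 4 had 12, 32 and 21 counts (3.90, 6.44 and 4.94 CPM). ITF1, Rel and ITM had 12, 4 and 4 counts and Lyso 1 to 3 had 3, 6 and 2, so that every Tumor library lay above the other 9 in CPM. Summed counts per count on genes were 15.2 times higher in Tumor than in WT, with an exact 95% interval of 6.97 to 39.3 for counting error. This ratio is weighted to WT 3, the deepest WT library. Means over libraries were 0.597 CPM in WT and 5.09 CPM in Tumor. The fitted log2 fold change was 3.77 (SE 0.68, adjusted p = 0.00201, edgeR) against WT, 3.45 (SE 0.53, adjusted p = 0.000496) against the relapsed lines and 3.92 (SE 0.57, adjusted p = 0.00033) against Lyso. With WT 1 and WT 2 as controls, which held 3 counts, it was 2.80, and edgeR gave an adjusted p of 0.0468 with WT 3 left out of the fit and 0.0512 with WT 3 kept in it as a group of its own. Zeb1 passed the count filter only through Tumor, so its calls higher there were close to fixed in advance. The 10 fibroblast markers moved with it, at 7707 to 10709 CPM summed in Tumor and 15.1 to 39.5 CPM in the other 9 libraries. Their part in the Zeb1 result was not tested.

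**Figure D3:**
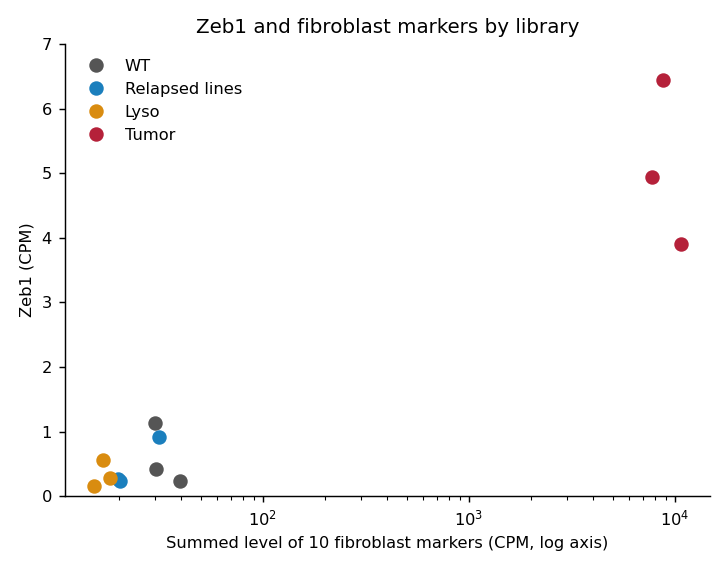
Zeb1 level in CPM (y axis) against the summed level of 10 fibroblast markers in CPM (x axis, log scale), 1 point per library, coloured by group. The 3 Tumor libraries lie at 3.90 to 6.44 CPM of Zeb1 and 7707 to 10709 CPM of markers, and the other 9 at no more than 1.13 and 39.5 CPM.

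Zeb2 (chromosome 2, 44983632 to 45117395, minus strand), the partner of the pair in differentiated melanocytes, was far above Zeb1 in every library and was not called in the fit of all libraries. WT 1 to 3 had 119, 165 and 237 CPM, ITF1, Rel and ITM 313, 191 and 128 CPM, Lyso 1 to 3 168, 154 and 144 CPM, and Tumor 1, 3 and 4 226, 236 and 264 CPM. Tumor overlapped WT and lay above Lyso (log2 fold changes 0.47, adjusted p = 0.288, and 0.65, adjusted p = 0.117, edgeR). Against Lyso it was called higher with the compared groups only (adjusted p = 0.0001), with the replicate block (adjusted p = 0.000245), without the filter on low counts (adjusted p = 0.0142) and with scaling by melanocyte genes (1.32, adjusted p = 0.032, edgeR). Zeb1 counts were 0.0172 to 0.0273 of Zeb2 counts in Tumor and 0.000997 to 0.00952 in WT, without overlap (exact permutation p = 0.1). Per kilobase of exon, Tumor had 0.496 ± 0.124 CPM of Zeb1 and 12.1 ± 0.977 CPM of Zeb2 (SD, n = 3).

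The calls among the 10 regulators are read here against those among all genes. Between the relapsed lines and WT, 0 of 10 were called by edgeR and 0 by DESeq2, 2 had an unadjusted p under 0.05 (Pax3 and Ngfr), and 0.0402% of all genes were called. Libraries did not overlap for 1 of the 10 (Pax3), against 10.6% of all genes. In Lyso, 1 of 10 was called (Ngfr, lower), where 4.71% of all genes were called and 1.21% were called lower, and libraries did not overlap for 4 (Pax3, Sox10 and Tbx2 above, Ngfr below), against 27.4% of all genes. In Tumor against WT, 3 were called, all higher (Mitf, Pax3 and Zeb1), where 19.0% of all genes were called and 12.1% were called higher, and libraries did not overlap for these 3, against 36.1%. Against the relapsed lines, 3 were called higher (Mitf, Ngfr and Zeb1), with 19.6% of all genes called and 11.8% called higher. Against Lyso the same 3 symbols were called higher, with 24.7% and 14.2% of all genes. Zeb1 is among the 3 in each of these comparisons with Tumor, and it passed the count filter only through Tumor. Comparisons that share WT or Tumor libraries are not independent of each other. The median log2 fold change of the 10 was 0.40 in Tumor, 0.07 in Lyso and 0.29 in the relapsed lines, and that of all genes tested was 0.00, -0.00 and 0.01. With libraries scaled by melanocyte genes, every log2 fold change but that of Sox9 lay below 0 in Lyso and every one but those of Sox9 and Pou3f2 lay below 0 in the relapsed lines, while Mitf, Pax3 and Zeb1 stayed above 0 in Tumor.

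**Figure D4:**
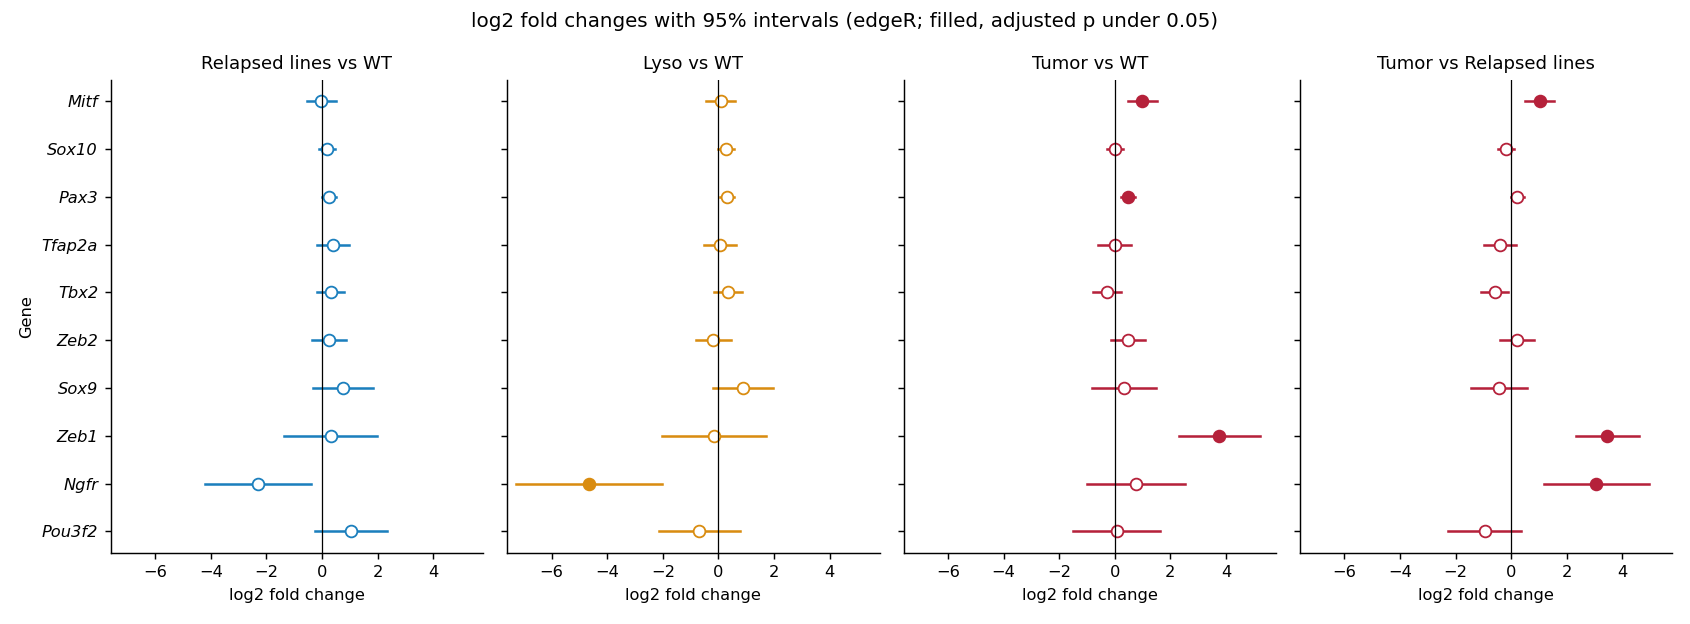
log2 fold change of each regulator (x axis) with its 95% interval (bars) in 4 comparisons, from edgeR on 3 libraries per group. Filled circles have an adjusted p under 0.05 and open circles do not. In Tumor against WT, Mitf, Pax3 and Zeb1 are filled at 0.99, 0.48 and 3.77, and the interval of Sox10 spans -0.29 to 0.29.

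The wider network was followed in 6 lists of 90 genes, of which 69 were tested. Between the relapsed lines and WT edgeR called 0 of them, as did DESeq2. An unadjusted p under 0.05 was reached by 16 of the 69 and by 1636 of all 14924 genes tested with edgeR. In Lyso, 3 were higher and 2 lower. In Tumor, 18 were higher and 5 lower, and against the relapsed lines 18 were higher and 10 lower. Of all genes tested, 4.71% were called in Lyso, 19.0% in Tumor and 19.6% in Tumor against the relapsed lines. The counts of the single lists below are to be read against the same shares.

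Of 18 tested pigment and survival genes that MITF is known to switch on, 1 was higher in Tumor than in WT (Hif1a, the hypoxia-inducible factor, 0.65, SE 0.14, adjusted p = 0.00636, edgeR) and 1 was lower (Tyrp1, a melanin enzyme). Tyrp1 went from 10529 ± 1773 CPM (SD, n = 3) to 6684 ± 694 CPM in Tumor, a log2 fold change of -0.66 (SE 0.18, adjusted p = 0.0251, edgeR), with all Tumor libraries below WT. Dct, the dopachrome tautomerase that is a classical target, stood at a log2 fold change of 0.13 (adjusted p = 0.739, edgeR), and the median of the list was 0.17. That median was larger in the groups where Mitf was not called, at 0.44 in the relapsed lines and 0.45 in Lyso. Log2 fold changes against WT were above 0 for 12 of the 18 in Tumor, 16 in the relapsed lines and 17 in Lyso. Tumor was below the relapsed lines for 15 of the 18 and below Lyso for 14. Against the relapsed lines, 5 of the 18 were lower in Tumor, among them the melanosome genes Mlana (-1.29, SE 0.22, adjusted p = 0.00111), Gpr143 (-1.15, SE 0.27, adjusted p = 0.00897) and Tyrp1 (-0.85, SE 0.18, adjusted p = 0.00564), and 1 was higher, the coactivator gene Ppargc1a (1.34, SE 0.31, adjusted p = 0.00849, edgeR). Mlana stood at 676 ± 1.01 CPM (SD, n = 3) in Tumor and 1655 ± 518 CPM in the relapsed lines, without overlap. In Lyso, 1 of the 18 was higher, Myo5a, the motor that carries melanosomes (1.03, SE 0.25, adjusted p = 0.0362, edgeR), from 518 ± 58.1 to 1059 ± 31.7 CPM.

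Among 9 tested signals upstream of Mitf, 2 were higher in Tumor than in WT. Wnt5a, a WNT ligand tied to invasive melanoma, had no count in any WT library and 34 counts over the 3 Tumor libraries. That is at least 18.5-fold higher when 3 counts over the WT group are taken as the floor. This floor is pooled over WT and rests mainly on the depth of WT 3, as do the later bounds. In WT 1 alone 3 counts stood for 1.70 CPM, beside a Wnt5a mean of 2.85 CPM in Tumor. Ednrb, the endothelin receptor of melanoblasts, had 1.50 ± 0.513 CPM (SD, n = 3) in Tumor and 0.0786 ± 0.136 CPM in WT (2.94, SE 0.74, adjusted p = 0.0188, edgeR). Mc1r, the melanocortin receptor whose signal reaches the CRE of the M promoter, was lower in Tumor than in the relapsed lines, at 189 ± 20.8 against 360.2 ± 52.2 CPM (-0.93, SE 0.16, adjusted p = 0.00126, edgeR). None of the 9 was called in Lyso.

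Of 7 related factors tested, Tfeb, a close relative of MITF that governs lysosome genes, rose in Tumor from 18.6 ± 2.95 to 39.1 ± 6.12 CPM (1.10, SE 0.26, adjusted p = 0.0110, edgeR), with no overlap. Lef1, the factor whose letters stand in the M window, was called lower in Tumor at 0.280 ± 0.304 CPM against 3.0 ± 2.60 CPM in WT (-3.39, SE 0.84, adjusted p = 0.0132, edgeR), but its libraries overlapped. Pou3f1, a POU factor of Schwann cells, was called higher in Tumor than in the relapsed lines (1.93, SE 0.56, adjusted p = 0.0286, edgeR), also with overlap. None was called in Lyso.

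Of 12 neural crest and glial genes tested, Gfra2, a receptor of the GDNF family, was higher in Tumor, with 0 counts in WT and 54 in Tumor, at least 29.5-fold on the same floor. The crest intermediate filament gene Nes was lower in Tumor (-0.78, SE 0.25, adjusted p = 0.0487, edgeR), without overlap. In Lyso, the glial genes Gfap (1.68, SE 0.28, adjusted p = 0.00417) and Fabp7 (1.02, SE 0.25, adjusted p = 0.0375) were higher and the adhesion gene L1cam was lower (-2.13, SE 0.54, adjusted p = 0.0425, edgeR). Gfap went from 4.29 ± 2.07 to 16.1 ± 2.45 CPM (SD, n = 3).

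The invasive-state list held the most calls in Tumor, with 9 of 14 tested higher, 1 lower and a median log2 fold change of 2.49, which stayed 2.49 with genes absent from WT at their bound. Tnc, Egfr, Inhba and Fosl1 among them passed the count filter only through Tumor. So did Ednrb, Wnt5a, Gfra2, Snai1, Twist1 and Twist2 of other lists. The calls of all these genes higher in Tumor were thus close to fixed in advance. With at least 10 counts in every compared library, 6 of 47 network genes were called higher in Tumor than in WT and 2 lower. Of all 10332 genes then tested, 843 were called higher and 662 lower (edgeR). Jun, the AP-1 subunit, went from 63.9 ± 4.16 to 705 ± 79.8 CPM (3.46, SE 0.29, adjusted p = 4.57e-06), and Ccn1, a target of YAP and TEAD, from 115 ± 42.0 to 541 ± 139 CPM (2.21, SE 0.28, adjusted p = 0.000176, edgeR). Tnc, the matrix protein tenascin C, had no count in WT and 165 ± 73.7 CPM in Tumor, at least 1040-fold. Egfr, the receptor of epidermal growth factor, also had no count in WT and had 25.0 ± 7.35 CPM in Tumor, at least 161-fold. Ccn1 was the 1 gene of the list called in Lyso, and it was lower there (-1.74, SE 0.28, adjusted p = 0.00347, edgeR). The difference between its Tumor and Lyso values was itself called (3.95, SE 0.30, adjusted p = 1.63e-06, edgeR).

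Of 9 tested EMT factors and cadherins, 4 were higher in Tumor and none lower. Fn1, fibronectin, went from 96.3 ± 42.6 to 1116 ± 92.0 CPM (3.51, SE 0.39, adjusted p = 6.36e-05, edgeR) and Snai1, a zinc-finger repressor of E-cadherin, from 0.180 ± 0.218 to 4.30 ± 2.19 CPM (4.71, SE 0.69, adjusted p = 0.000477, edgeR). Twist1 and Twist2, basic helix-loop-helix factors of mesenchyme, had no count in WT and 60 and 45 counts in Tumor, at least 32.7-fold and 24.5-fold. Fibroblasts express Tnc, Fn1, Twist1, Twist2 and Zeb1 as well, the fibroblast markers rose in the same libraries, and their part in these lists was not tested. None of the 9 was called in Lyso.

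**Figure D5:**
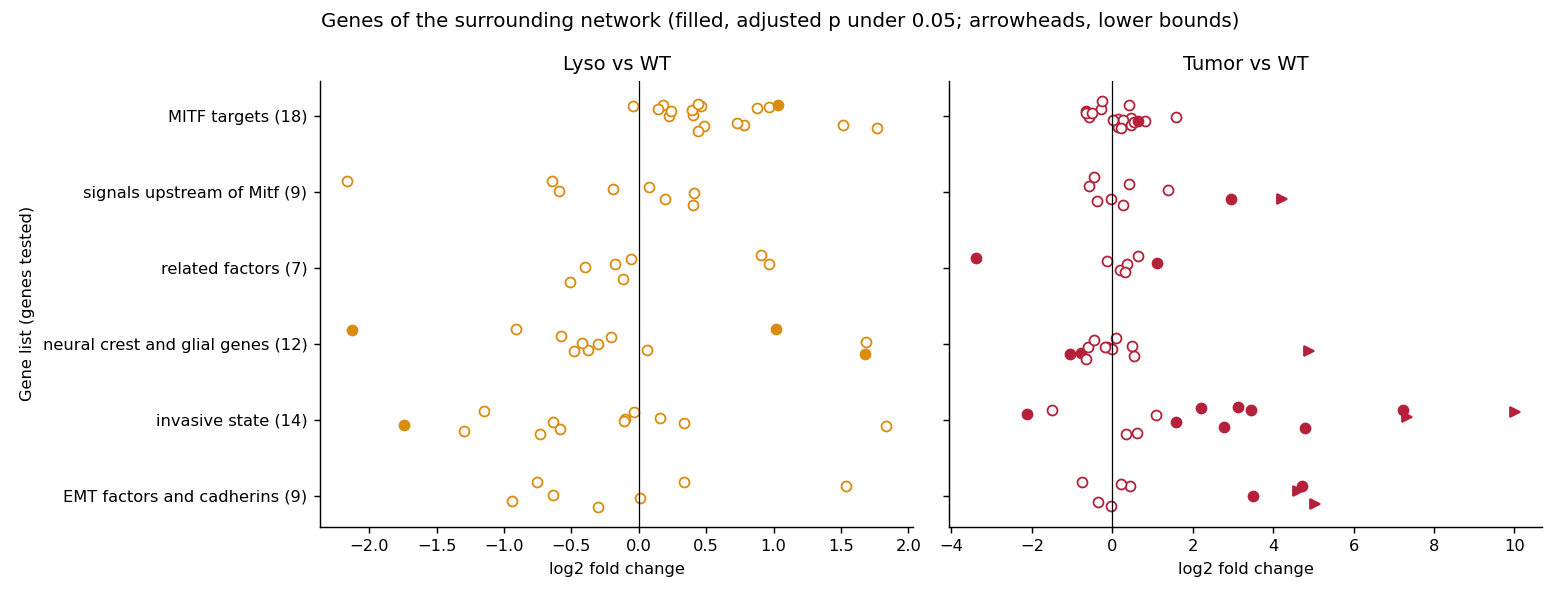
log2 fold change (x axis) of the tested genes of the 6 lists (y axis, number tested in brackets), left for Lyso and right for Tumor against WT, on different x scales. Filled symbols have an adjusted p under 0.05, arrowheads are lower bounds for genes with no count in WT, genes with a fold change of 0 for lack of counts in both groups are left out, and vertical scatter has no meaning. The invasive-state list shows 9 filled symbols above 0 in Tumor, up to a bound of 10.03. The MITF targets lie around 0 in Tumor, and 17 of 18 lie above 0 in Lyso.

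Among the genes whose log2 fold changes against WT in the relapsed lines, Lyso and Tumor came nearest to those of Mitf, out of all genes tested, were Car8, Ptp4a1, Osbpl6 and Gm26635, at root mean square differences of 0.0637 to 0.0721 over the 3 comparisons. Ptp4a1, which encodes a protein tyrosine phosphatase, had log2 fold changes of -0.09, 0.15 and 0.92, beside -0.02, 0.08 and 0.99 for Mitf. Car8, which encodes a protein related to carbonic anhydrases, had mean levels of 2.83 CPM in WT and 5.04 CPM in Tumor and was not called there (adjusted p = 0.122, edgeR), while the others named were.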

How the data were processed

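The table deposited by the authors holds raw counts per gene, not normalized, from trimmed reads on GRCm38. The submitters' processing notes name fastp 0.19.6, STAR 2.7.1a and DESeq2 1.24.0. The annotation release and the strand setting are not given in the sources used here. The table holds 54232 genes and 4 rows for reads on no gene, which were left out of library sizes. The share of reads on genes was 36.17% to 39.36% per library. Symbols came from GENCODE M21, which holds 54165 of the identifiers, with Asip found by its RefSeq synonym.

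From the counts, edgeR 4.0.16 in R 4.3.3 (glmQLFit, glmQLFTest) was run with TMM scaling and filterByExpr on all 12 libraries. SE was taken as the log2 fold change divided by the root of F, and 95% intervals use the residual and prior degrees of freedom. Tables and exact tests used Python 3.11.15 and scipy 1.17.1. The scripts were tested on simulated data. Alternatives were DESeq2 1.42.0, RLE or library-size scaling, an offset from 10 melanocyte genes, no filter, at least 10 counts in every compared library, the compared groups alone, a replicate block, an absolute log2 fold change over 1, glmTreat, WT of similar depth and each library left out. WT of the other depth, and the alternatives of Tumor against Lyso, were chosen after seeing the data.

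The regulators and gene lists were chosen with earlier results of these data known. Named genes are the 10 regulators, at most 4 called genes of smallest p per list and comparison, of which not all are printed, and the 5 nearest to Mitf, and some genes under this rule are not reported here. Dct and the genes named as examples of markers fall outside that rule. Libraries of a group differed by more than sampling noise (chi-square per degree of freedom 1.59 to 73.4) and were kept as separate. The authors' other data were not analysed here.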

Additional observations from a re-analysis of the deposited data

How the results depend on the processing

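The direction of Mitf, Pax3 and Zeb1 in Tumor against WT held under every alternative run (Zeb1 was not tested with at least 10 counts), while the number of regulators called moved with the settings below. Library-size scaling moved the median of all genes by -0.10 in Lyso, and scaling by melanocyte genes moved it by -0.44 in the relapsed lines, -0.86 in Lyso, -0.17 in Tumor, 0.28 in Tumor against the relapsed lines and 0.69 in Tumor against Lyso. The cause of each change below was not tested. Of the 3 regulators called in Tumor against WT, 1 remained with melanocyte scaling, with an absolute log2 fold change over 1, with glmTreat and against WT 3 alone. The single call in Lyso (Ngfr) became 0 with at least 10 counts in every library, with the compared groups only, where Ngfr was filtered out in both, with glmTreat and with either depth of WT. The relapsed lines went from 0 to 1 without the filter, Ngfr lower (adjusted p = 0.0331, edgeR). Of 3 calls, 1 was left with at least 10 counts in Tumor against the relapsed lines and against Lyso, 1 with glmTreat in the former, and 5 were made without the filter and with the compared groups only in the latter. Among network genes, the relapsed lines went from 0 to 1 with melanocyte scaling and 9 without the filter. Lyso went from 5 (3 higher, 2 lower) to 18 with melanocyte scaling (1 higher, 17 lower), 19 without the filter, 11 with DESeq2 and with the compared groups only, 1 against WT of similar depth and 0 with glmTreat. Tumor went from 23 to 37 without the filter, 8 with at least 10 counts and 15 with glmTreat, and Tumor against the relapsed lines from 28 to 16 with at least 10 counts and 16 with glmTreat, while melanocyte scaling left 19 higher and 1 lower there. With 1 library left out, calls of regulators ranged from 0 to 1 in Lyso, 2 to 4 in Tumor against the relapsed lines and 2 to 4 against Lyso, and stayed at 0 in the relapsed lines and 3 in Tumor against WT; those of network genes ranged from 0 to 4, 2 to 8, 19 to 27 and 23 to 31 in the relapsed lines, Lyso, Tumor and Tumor against the relapsed lines. Without ITF1, 4 network genes were called in the relapsed lines, and without WT 1, 8 were in Lyso. WT, Lyso and Tumor share replicate numbers only: deviations of same-numbered libraries correlated at -0.01 to 0.083. With that number as a block, in the compared groups only, calls of regulators were 0 in Lyso, 1 in Tumor against WT (Zeb1) and 5 in Tumor against Lyso, and those of network genes 11 in Lyso and 13 in Tumor. The depth of WT 1 and WT 2 limits Zeb1, Ngfr and Pou3f2, which had 0 to 5 counts there.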
